A study of Sorghum bicolor with 9 samples.

Results

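The 58 genes described here were abundant in young sorghum anthers, with meiocytes and then with microspores, and were nearly gone when the anthers held mature pollen. They were chosen by their deposited stage values, with a rule that asked for a gene ID, at least 50 FPKM in both A1 and A2, below 1 FPKM in A3, and an A2 value (with 0.5 FPKM added to each stage) less than 4-fold that of A1. FPKM are fragments mapped to a locus, scaled by transcript length and by library size, so that levels are per length. Where 3 FPKM values follow each other for a gene, they are those of A1, A2 and A3 in this order. The rule kept 58 of the 33115 loci with a gene ID. Of 2020 such loci at 50 FPKM or more in A1 and A2, 67 were below 1 FPKM in A3. The 4-fold limit left out 5 of these, and 4 were left out by name. The rule itself used the values of all 3 stages, so the stage values of the members below are a description with no test.

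RNA came from whole anthers of Sorghum bicolor cultivar M35-1 grown in an open field, with 3 libraries for each of 3 stages. Stage A1 ran from meiosis to tetrads, A2 held microspores and A3 held mature pollen. The authors combined the replicates of a stage into 1 value per locus, so no difference has a replicate error behind it. The precision of each value and the reads behind it are unknown. According to the library names, all A3 libraries share a project code with 1 library of A1 and 1 of A2, and in combined values project and stage cannot be told apart.

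While meiocytes divide and microspores build their wall, the anther also holds several somatic wall layers. The innermost, the tapetum, feeds the microspores, secretes the enzymes that free them from the tetrad, makes sporopollenin precursors and lipid carriers for the pollen wall (exine), and then dies in a programmed way. In mature anthers the tapetum is gone, and pollen grains filled with starch and stored transcripts supply much of the RNA. In bulk anthers, fewer cells of a type and less RNA per cell cannot be told apart.

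Although the labels give the tissue as male gametophyte, the whole anthers also held transcripts of genes known from the tapetum. A list of 13 tapetum and exine genes was drawn from the orthologs that the study grouped by their stage course in these same data, with a peak at A1 and A2 or at A2. All 13 on the list fell by 2-fold or more from A2 to A3, which that choice largely fixes, so the count is not read against the 12.6% of 30776 loci that did so. Their summed level was 10282 FPKM (A1), 14351 (A2) and 193 (A3), 6 were below 1 FPKM in A3 and 0 were listed at 0. Sobic.002G270400, the ortholog of the lipid transfer protein gene LTPL45, which the study describes as a microspore gene, stood at 1486 FPKM (A1), 2006 (A2) and 1.35 (A3), just above the limit of the rule. TDR (Sobic.004G017500), a transcription factor of tapetum development and degeneration, still had 101 FPKM in A3. WDA1 (Sobic.001G222700), a gene of exine and cuticle lipids that the list does not hold, went the other way, with 30.1 FPKM (A1), 45.7 (A2) and 295 (A3).

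The 11 listed meiocyte genes also came from groups that the study formed in these same data, with a peak at A1 or at A1 and A2. Of these, 9 fell by 2-fold or more from A2 to A3, which that choice largely fixes. Their summed level was 223 FPKM (A1), 172 (A2) and 63.1 (A3). Outside that list the study names 14 more meiotic genes, of which 10 fell and 3 rose by 2-fold or more. The study grouped these by stage course too, and the 3 that rose are in its group with a peak at A3. Neither count is therefore read against the 12.6% of all loci that fell. The 3 that rose, Sobic.009G012500 and Sobic.009G012200 (both RPA1c, a single-strand DNA binding protein) and Sobic.008G138200 (MEL2, a regulator of meiotic entry in rice), stood between 1.33 and 8.83 FPKM in A3. All 6 mature pollen genes, also chosen from groups with a peak at A3, were under 1 FPKM in A1 and A2 and stood at 24.0 to 86.2 FPKM in A3. The part of each cell type in the values of the 58 genes was not tested.

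The 58 genes spanned from 50.1 to 2745 FPKM in A1 and from 52.1 to 4054 FPKM in A2, with medians of 124 and 126 FPKM. In A3 they ranged from 0.0164 to 0.993 FPKM with a median of 0.176. None was listed at exactly 0 in A3, 20 were below 0.1 FPKM, 27 lay from 0.1 up to 0.5 and 11 from 0.5 up to 1. Together they held 3.39% of the summed FPKM of all loci in A1, and this share was 3.73% in A2 but 0.00195% in A3. In A1 the 4 strongest genes carried 42.8% of the sum of the members, and in A2 the same 4 genes carried 46.6%.

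**Figure D1:**
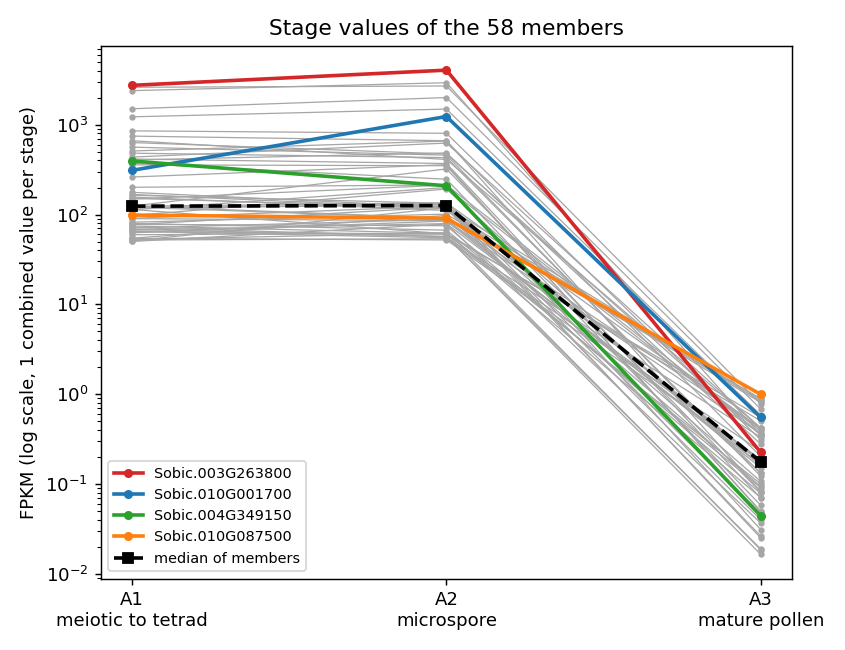
FPKM (log axis) of each of the 58 genes in stages A1, A2 and A3, 1 line per gene, with 4 genes in colour and the median as a dashed black line. Most lines run nearly level from A1 to A2 (medians 124 and 126 FPKM), with Sobic.010G001700 (blue) the steepest rise, and all drop to between 0.0164 and 0.993 FPKM in A3.

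By construction all 58 genes fell by 2-fold or more to A3, from A2 as well as from A1. Over all 30776 loci that have a gene ID and were listed above 0 at any stage, 12.6% were so in either comparison, and over the 2020 abundant loci 23.2% were lower than in A2 and 29.0% lower than in A1. Nothing is read from the count of members. After adding 0.5 FPKM to each value, which understates the change of genes near 0 in A3, the members were 57.6-fold to 5597-fold lower in A3 than in A2, with a median of 212-fold. Against A1 they were 53.4-fold to 3790.5-fold lower, with a median of 185-fold. A fold of at least 100 against A1 was found for 45 genes, of at least 500 for 17 and of at least 1000 for 7.

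Loss of an abundant early transcript was rare. Of the 2020 abundant loci, 1407 were still at 50 FPKM or more in A3, 471 lay from 10 up to 50 FPKM, 29 from 5 up to 10, 28 from 2 up to 5 and 18 from 1 up to 2. The 67 loci below 1 FPKM, members and left-out loci together, were 3.32% of the abundant loci. The share was larger among the strongest. With a mean of A1 and A2 from 50 up to 100 FPKM, 22 of 1047 loci (2.10%) were below 1 FPKM in A3, and from 100 up to 200 FPKM 16 of 549 (2.91%). From 200 up to 500 FPKM the count was 9 of 320 (2.81%). From 500 up to 1000 FPKM it was 14 of 69 (20.3%), and at 1000 FPKM or more 6 of 35 (17.1%). Of the 35 strongest loci, 5 were members. No test stands behind these shares.

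**Figure D2:**
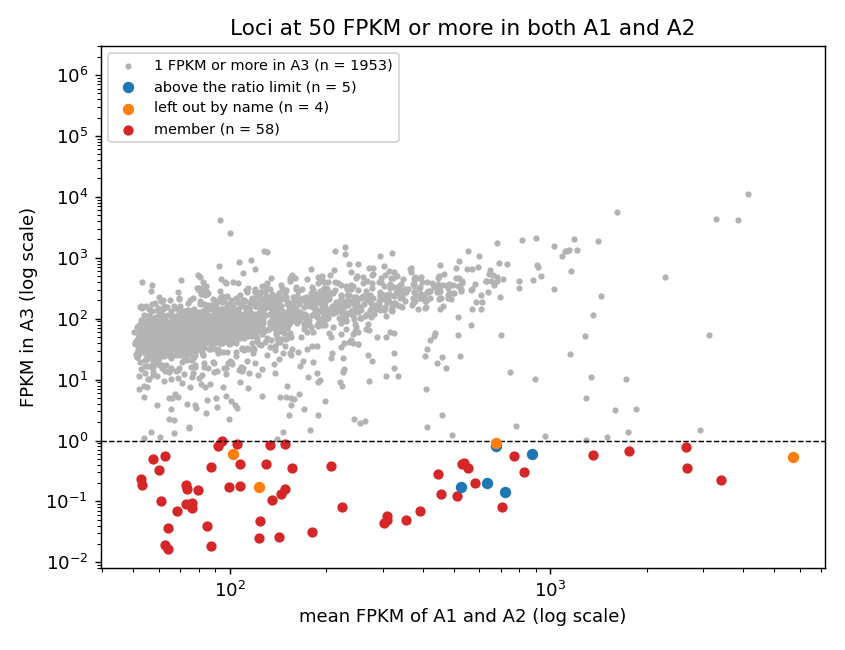
A3 level against the mean of A1 and A2 (both FPKM, log axes) for the 2020 loci at 50 FPKM or more in A1 and A2. The 58 members (red), the 5 loci above the ratio limit (blue) and the 4 left out by name (orange) lie below the dashed line at 1 FPKM, and the loci at 1 FPKM or more in A3 (grey) lie above it.

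The strongest member was Sobic.003G263800, on chromosome 3 from 60113010 to 60113303 (genome version v3.0.1), with 2745 FPKM (A1), 4054 (A2) and 0.224 (A3). Its interval in the deposited table is 294 bp long, the shortest of all members. Sobic.006G267400, on chromosome 6 from 60066240 to 60067105, had 2397 FPKM (A1), 2936 (A2) and 0.351 (A3). Both were higher in A2 than in A1 by less than 2-fold and under 1 FPKM in A3, and neither has a described match in the sources used here. Sobic.007G000600 lies in the interval from 78432 to 84898 on chromosome 7 and was at 2614, 2701 and 0.774 FPKM. For Sobic.001G215000, on chromosome 1 within the interval from 19807387 to 19812137, the values were 1506, 2008 and 0.682 FPKM. Sobic.007G037400, on chromosome 7 from 3637373 to 3638466, completed the genes above 1000 FPKM in both early stages, with 1225, 1494 and 0.586 FPKM. These 5 genes were all somewhat higher in A2, and their A3 values all lay above the median of the members.

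The next 5 by mean level did not share a direction between A1 and A2. Sobic.003G016000 (chromosome 3, 1451110 to 1452311) had 855 FPKM (A1), 803 (A2) and 0.310 (A3). Sobic.008G083100 (chromosome 8, 15832863 to 15833576) had 747, 664 and 0.0825 FPKM, the lowest A3 value among the 10 strongest members. Sobic.002G165500, within the interval 51632337 to 51636967 of chromosome 2, had 633, 473 and 0.348 FPKM. These 3 genes were lower in A2 than in A1. Higher in A2 were Sobic.006G098300 (chromosome 6, 46785398 to 46786396) with 510.0 FPKM (A1), 658 (A2) and 0.202 (A3), and Sobic.010G001700, the member with the largest gain from A1 to A2.

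The part of the study's gene table used here holds only genes of chromosomes 1 and 2, so members elsewhere could not be looked up. For 5 members on these chromosomes it lists a rice or Arabidopsis match. The strongest was Sobic.001G133100 (chromosome 1, 10484727 to 10485698), matching a putative rice ribosome-inactivating protein, a class of enzymes that depurinate ribosomal RNA and stop translation, with 482 FPKM (A1), 430.1 (A2) and 0.131 (A3). The thaumatin-like gene Sobic.001G449200 (chromosome 1, 72632332 to 72633957), of the pathogenesis-related thaumatin superfamily of secreted proteins, had 156, 111 and 0.840 FPKM. Both declined slightly from A1 to A2, by less than 2-fold.

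Sobic.002G109100 (chromosome 2, 13271051 to 13272067) matches rice LTPL42, of a family of protease inhibitors, seed storage proteins and lipid transfer proteins. It had 90.1 FPKM (A1), 85.2 (A2) and 0.362 (A3), and which of these functions it has is not given. The cytochrome P450 gene Sobic.001G082200 (chromosome 1, 6335415 to 6337862), matching the Arabidopsis subfamily CYP81D of oxygen-inserting enzymes, had 50.1, 78.4 and 0.0365 FPKM. Sobic.001G430900 (chromosome 1, 71006530 to 71008813) matches a ubiquitin fusion protein, in which ubiquitin is joined to ribosomal protein L40e, and had 82.1, 101 and 0.808 FPKM. It is the only one of the 5 that the gene table marks as anther specific. The LTPL42 match was nearly level between A1 and A2, while the P450 and the ubiquitin fusion gene were higher in A2, again by less than 2-fold. The other members, 7 of the 12 on chromosomes 1 and 2 among them, have no description in the sources used here, so they are given by ID alone.

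From meiotic to microspore anthers most of the 58 genes changed by less than 2-fold. Their median log2 of A2 over A1 was 0.05, against -0.12 over the 2020 abundant loci and -0.00068 over all 30776 loci. The quartiles were -0.26 and 0.40 for the members, -0.28 and 0.04 for the abundant loci and -0.13 and 0.11 for all loci. Between the quartiles the members spread wider than both sets, most of all upward. Over the full range they were narrower, from -0.92 to 1.99, against -1.42 to 4.07 for the abundant and -4.49 to 8.99 for all loci. The rule limits this ratio, and the added 0.5 FPKM pulls weak loci toward 0. All loci had a median of only 1.61 FPKM in A1, so nothing is read from the spread. A total of 46 genes lay within 1.5-fold, 8 were more than 1.5-fold higher in A2 and 4 more than 1.5-fold lower. These 1.5-fold counts were not made for the background. By sign alone, 30 were higher and 28 lower in A2. At least 2-fold higher in A2 were 3 of 58 (5.17%), where 2.91% of all loci and 2.52% of the abundant loci were. At least 2-fold lower in A2 were 0 of 58, where 0.741% of all loci and 0.198% of the abundant loci were. The upper limit on this ratio is part of the rule, so the count of higher genes is bounded by it.

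Sobic.010G001700, within the interval 147242 to 156359 of chromosome 10, rose furthest, with 311 FPKM (A1), 1235 (A2) and 0.550 (A3), a 3.97-fold higher value in A2 that lies just inside the limit. Sobic.001G144700 (chromosome 1, interval 11594434 to 11600734) was 2.59-fold higher in A2, with 124, 322 and 0.0807 FPKM. Sobic.006G129466 (chromosome 6, 49402632 to 49403249) was 2.34-fold higher, with 50.7, 119 and 0.0400 FPKM. Only these 3 members reached 2-fold. Below them came Sobic.007G165400 (chromosome 7, 60005611 to 60007563) with 97.3 FPKM (A1), 192 (A2) and 0.133 (A3), and Sobic.006G127750 (chromosome 6, 49271309 to 49272282) with 54.5, 97.8 and 0.0937 FPKM. The count of 3 changed with the scale of the stages, to 5 with every stage scaled to the same sum and 1 with median-of-ratios scaling. These scalings shifted the log2 of A2 over A1 by only -0.075 and 0.016, too little to bring any of the 3 below 2-fold. The counts moved because loci entered or left the set at the limits of the rule.

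At the other end, Sobic.004G349150 (chromosome 4, 67799951 to 67800505) was 1.89-fold lower in A2, with 395 FPKM (A1), 209 (A2) and 0.0441 (A3). Sobic.003G038700 (chromosome 3, 3618102 to 3619923) was 1.86-fold lower, with 114, 60.9 and 0.0185 FPKM. These are the members for which the early decline was largest, and both were already among the lower A3 values. Sobic.007G043300 (chromosome 7, interval 4324570 to 4335190) had 663, 410.4 and 0.420 FPKM, a 1.62-fold lower value in A2. Sobic.002G173300 (chromosome 2, interval 54661181 to 54668169) had 372, 247 and 0.0579 FPKM. Sobic.003G014400 (chromosome 3, 1281804 to 1282559) had 177, 121 and 0.873 FPKM. Among the 5, the last had the highest listed A3 value, but without reads per locus values this low are not ordered with confidence.

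**Figure D3:**
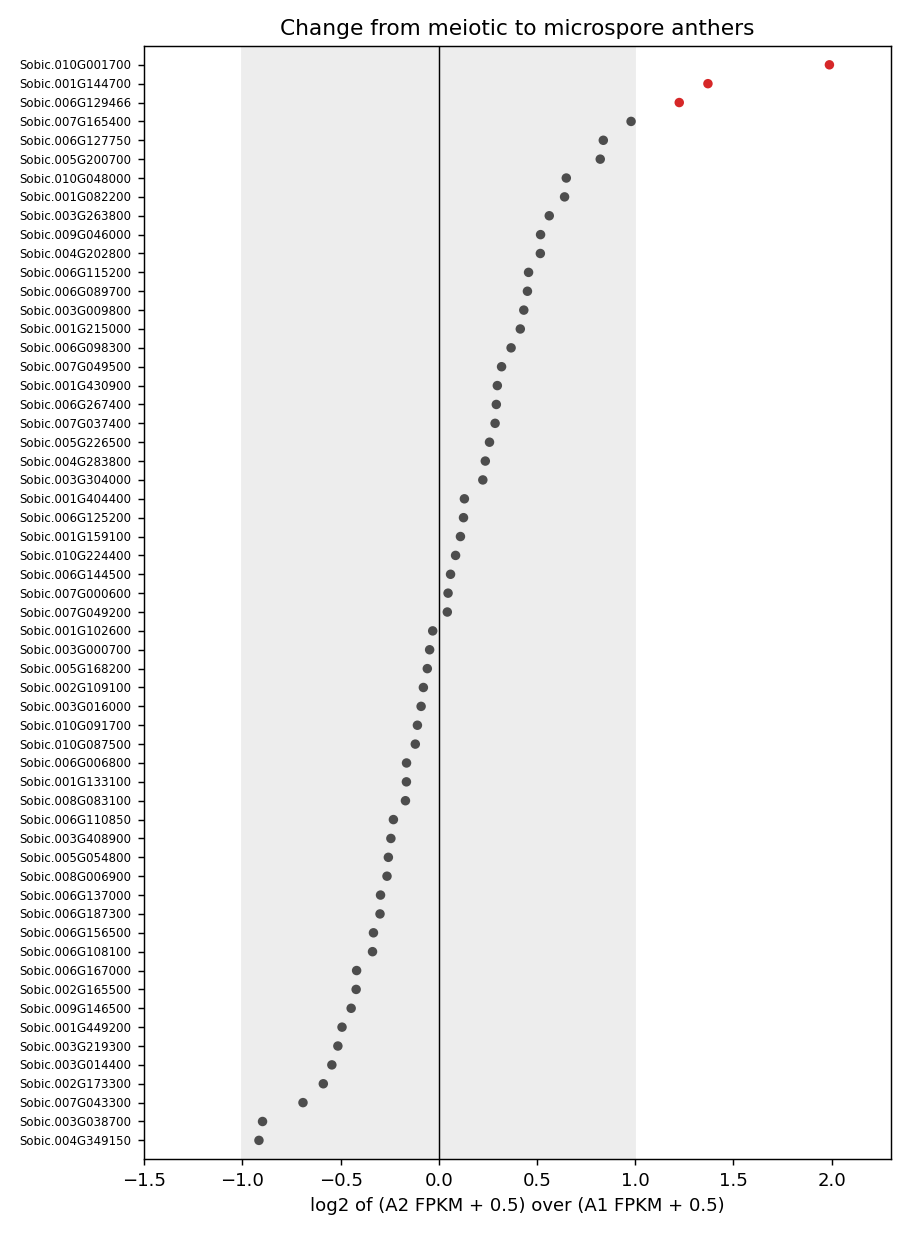
Log2 of (A2 FPKM + 0.5) over (A1 FPKM + 0.5) for each of the 58 genes, sorted, with the band of less than 2-fold change shaded. The 3 genes at or above 2-fold (red) reach 1.22 to 1.99, and the lowest gene is at -0.92.

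The lowest A3 levels were not those of the strongest genes. Sobic.006G156500 (chromosome 6, interval 51575553 to 51581768) had the lowest, with 71.6 FPKM (A1), 56.8 (A2) and 0.0164 (A3). Sobic.005G054800 (chromosome 5, 5554693 to 5556369) followed Sobic.003G038700 with 68.2, 57.0 and 0.0189 FPKM. Both began near the floor of 50 FPKM. Sobic.001G159100 (chromosome 1, 12958449 to 12959801) had 118, 128 and 0.0250 FPKM, and Sobic.003G219300 (chromosome 3, interval 55466393 to 55475384) had 167, 117 and 0.0263 FPKM. Without reads per locus, such low values cannot be ordered with confidence.

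Chromosome 6 carried 15 of the 58 genes (25.9%), although it held 7.97% of the abundant loci and 8.77% of all loci. Of the 161 abundant loci on chromosome 6, 9.32% were members, the highest such share of the 10 chromosomes. Chromosome 5 was next with 4 of 66 (6.06%). On chromosome 2 the share was 1.15% (3 of 261), on chromosome 9 1.09% (2 of 184) and on chromosome 4 1.18% (3 of 254). Chromosomes 1 and 3 held 9 members each, chromosome 7 held 6, chromosome 10 held 5 and chromosome 8 held 2. Of the 15 on chromosome 6, 13 lay between 45 and 55 Mb, a window that was set after their positions were seen and that holds 44.7% of the abundant and 41.9% of all loci of the chromosome. The counts carry no test, and neighbouring genes are not independent.

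**Figure D4:**
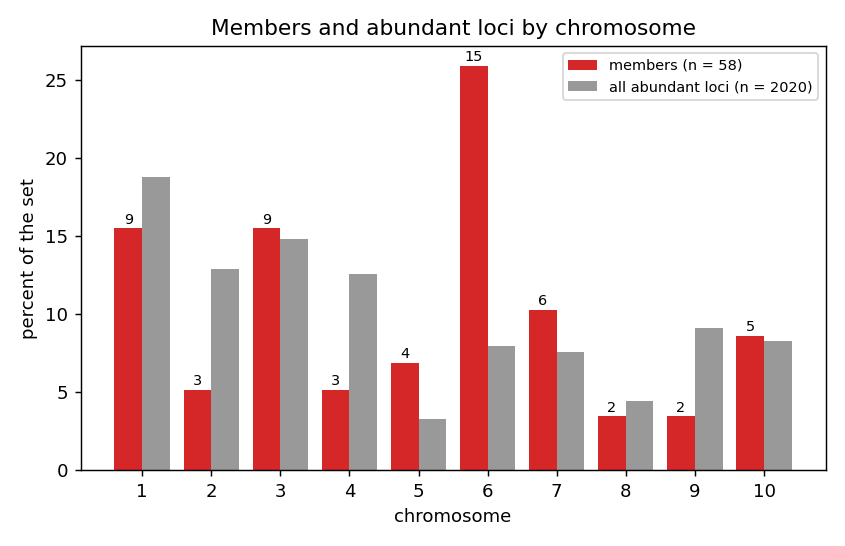
Percent of the 58 members (red, with their number above each bar) and of the 2020 abundant loci (grey) on each of the 10 chromosomes. Chromosome 6 holds 25.9% of the members and 7.97% of the abundant loci.

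The chromosome 6 genes did not share a level. Sobic.006G137000 (49939413 to 49944867) had 563 FPKM (A1), 458 (A2) and 0.122 (A3), and Sobic.006G006800 (1047156 to 1048271), far from the rest at the start of the chromosome, had 415, 370.1 and 0.0696 FPKM. Sobic.006G115200 (interval 48278669 to 48287896) had 262, 359 and 0.0490 FPKM. These 3 were within 1.5-fold between A1 and A2. In a middle range were Sobic.006G187300 (54208694 to 54210638) with 164, 133 and 0.162 FPKM, Sobic.006G108100 (interval 47765049 to 47768977) with 151, 119.6 and 0.107 FPKM, and Sobic.006G125200 (49056180 to 49058320) with 124, 135 and 0.417 FPKM. Sobic.006G089700 (45983685 to 45985997) had 90.8 FPKM (A1), 124 (A2) and 0.178 (A3). Near the floor of the rule were Sobic.006G110850 (47942300 to 47943603) with 64.8, 55.1 and 0.331 FPKM and Sobic.006G144500 (50636534 to 50643006) with 59.6, 62.1 and 0.1003 FPKM. No pair of chromosome 6 members lay within 100 kb of each other.

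Only 1 pair of members in the genome was that close. Sobic.007G049200 (chromosome 7, 4881681 to 4884392) and Sobic.007G049500 (4935841 to 4938458) were 51.4 kb apart. The former had 52.1 FPKM (A1), 53.7 (A2) and 0.231 (A3), and the latter 70.7, 88.3 and 0.152 FPKM. Both were near the floor and within 1.5-fold between A1 and A2.

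The loci next to the members were not used by the rule. None of the 116 nearest flanking loci, the closest on each side under another interval, was itself a member. Only loci with a gene ID and listed above 0 at any stage were taken as flanking. Of the 72 flanking loci at 1 FPKM or more in A1 or A2, 27 (37.5%) fell by 2-fold or more from A2 to A3. The same count gave 501 of 2320 (21.6%) for the flanking loci of the other abundant loci and 3677 of 17419 (21.1%) for all loci at that level. At least 2-fold higher in A3 were 4 of the 72 (5.56%), against 13.7% and 14.4%. Counting all 116 flanking loci, 25.9% fell that far, against 14.2% of all 3728 flanking loci of the other abundant loci and the background of 12.6%. The difference was not tested, and loci on a stretch of chromosome are not independent. Abundance in the 3 sets was not matched.

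Of the 27 flanking loci that fell, 14 were below 1 FPKM in A3, and 5 of these had 10 FPKM or more in both A1 and A2. The 5 were Sobic.004G349125, Sobic.010G048200, Sobic.006G129600, Sobic.006G127700 and Sobic.007G049100, with 16.4 to 46.7 FPKM in A2 and from 0 to 0.540 FPKM in A3. The counts of 14 and 5 were not made for the flanking loci of the other abundant loci. Whether they fell or not, 16 of the 72 flanking loci of members were below 1 FPKM in A3. The same count was 256 of 2320 beside other abundant loci and 2238 of 17419 for all loci at that early level, and the difference was not tested. At higher early levels, a pair of loci ended just above 1 FPKM. Sobic.006G006900, next to Sobic.006G006800, had 1605 FPKM (A1), 1411 (A2) and 1.13 (A3). Sobic.010G087600, next to Sobic.010G087500, had 156, 125 and 1.06 FPKM, where the member had 98.7, 90.8 and 0.993 FPKM. Both missed the rule only by the A3 value. Most flanking loci were far lower in the early stages. Of the 116, 8 reached 50 FPKM in both, where 2020 of all 30776 loci did. As these shares are close, nothing is read from this count. The examples were picked after their values were seen.

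Members lay in short intervals. Among those whose interval is listed for no other locus, 42 members had a median of 1568 bp, against 4227 bp for 1418 other abundant loci and 3088 bp for 23807 of all loci. Under 1500 bp were 20 of the 42 (47.6%), against 9.80% of the other abundant and 22.6% of all loci. These lengths run over introns, as the table gives no exons. FPKM divide by transcript length, so a short transcript reaches a given level with fewer fragments. Transcript lengths were not used here.

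For the other 16 members (27.6%, against 27.7% of the abundant loci) the table lists the same interval for 1 or 2 more loci, so their own borders are not given. The fall of the members is set by the rule, so the 18 loci that share these intervals are set against all loci. From A2 to A3, 2 of the 18 (11.1%, Sobic.002G173400 and Sobic.005G168300) fell by 2-fold or more, against 12.6% of all 30776 loci. As the shares are close, nothing is read from this count. At 10 FPKM or more in A3 were 7 of the 18, and 1 was below 1 FPKM in all stages. These 2 counts were not made for all loci. Next to Sobic.007G000600 (2614 FPKM in A1 and 0.774 in A3), Sobic.007G000700 stood at 6.79 FPKM (A1), 6.33 (A2) and 3.62 (A3). Sobic.006G115100, which shares an interval with Sobic.006G115200, was at 31.3, 28.3 and 71.5 FPKM and thus highest when its neighbour was at 0.0490 FPKM. Sobic.001G102600 (chromosome 1, interval 7851193 to 7857223), with 357, 349.6 and 0.0498 FPKM, lies beside Sobic.001G102500 at 20.3, 20.2 and 48.8 FPKM. The library kit kept strand, but whether strand was used in the counting is not given in the sources used here.

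**Figure D5:**
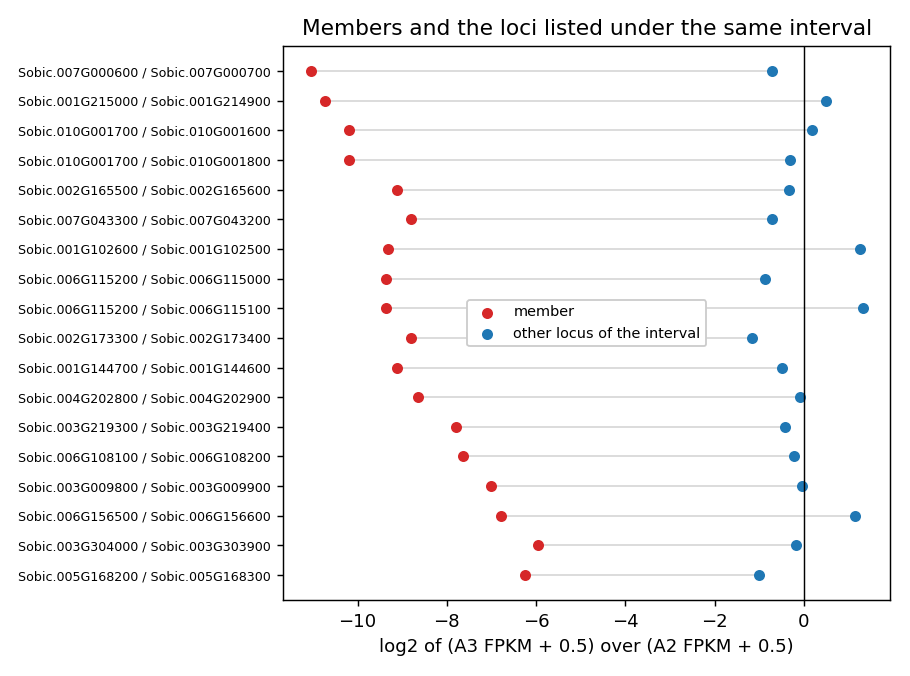
Log2 of (A3 FPKM + 0.5) over (A2 FPKM + 0.5) for the 16 members in shared intervals (red) and the 18 loci listed under the same intervals (blue), 1 row per pair. The members lie at or below -5.96 and the other loci between -1.17 and 1.32.

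In the same group, Sobic.004G202800 (chromosome 4, interval 55479615 to 55485493) had 149 FPKM (A1), 213 (A2) and 0.0310 (A3), beside Sobic.004G202900 at 4.37, 4.91 and 4.60 FPKM. Sobic.003G009800 (chromosome 3, interval 860745 to 865801) had 62.6, 84.6 and 0.161 FPKM. Sobic.003G304000 (chromosome 3, interval 63417424 to 63429093), with 53.0, 62.0 and 0.503 FPKM, shares its interval with Sobic.003G303900, which was nearly level at 75.6, 70.3 and 62.3 FPKM. Sobic.005G168200 (chromosome 5, interval 64671314 to 64683951) was at 54.3, 52.1 and 0.189 FPKM in the longest interval of all members, 12638 bp.

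On chromosome 9, Sobic.009G046000 (4386548 to 4387558) had 436 FPKM (A1), 625 (A2) and 0.419 (A3), and Sobic.009G146500 (50347883 to 50358276) had 124, 91.0 and 0.410 FPKM. On chromosome 5, Sobic.005G226500 (71364951 to 71365733) had 405, 485 and 0.278 FPKM and Sobic.005G200700 (68627295 to 68627798) had 113, 199.8 and 0.360 FPKM. The latter was 1.77-fold higher in A2, and the other 3 were within 1.5-fold. On chromosome 10, Sobic.010G224400 (56622173 to 56631598) had 201, 214 and 0.387 FPKM, Sobic.010G048000 (3723842 to 3726191) had 77.2, 121 and 0.173 FPKM and Sobic.010G091700 (8099335 to 8100844) had 65.0, 60.2 and 0.554 FPKM. Of these, only Sobic.010G048000 differed by more than 1.5-fold between A1 and A2.

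Members with modest levels completed the set. Sobic.001G404400 (chromosome 1, 68914811 to 68917890) had 119 FPKM (A1), 130.1 (A2) and 0.0469 (A3). Sobic.003G000700 (chromosome 3, 82224 to 83322) had 77.6, 75.1 and 0.0783 FPKM, and Sobic.003G408900 (chromosome 3, 71654043 to 71655739) had 79.5, 67.0 and 0.0910 FPKM. Sobic.004G283800 (chromosome 4, 62598454 to 62604032) had 67.2, 79.2 and 0.185 FPKM, and Sobic.008G006900 (chromosome 8, 574987 to 577182) had 74.4, 61.9 and 0.0703 FPKM. All 5 were below 0.2 FPKM in A3.

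Where the limits of the rule fell decided several cases. Just inside the A3 limit were Sobic.010G087500 (0.993 FPKM), Sobic.006G167000 (chromosome 6, 52430975 to 52434177, with 121, 90.3 and 0.893 FPKM) and Sobic.003G014400 (0.873 FPKM). Just outside it were Sobic.001G438400, matching an Ole e I allergen and extensin family protein, at 1466 FPKM (A1), 1128 (A2) and 1.04 (A3), then Sobic.010G087600 at 1.06 FPKM and Sobic.008G135500 at 54.6, 53.5 and 1.09 FPKM. At the floor of 50 FPKM, Sobic.001G082200 (50.1 FPKM in A1), Sobic.006G129466 (50.7) and Sobic.007G049200 (52.1) lay inside. Sobic.009G141300 (49.7 FPKM in A1), Sobic.010G166700 (48.0 in A2) and Sobic.009G074900 (47.0 in A1) lay outside.

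At the ratio limit, Sobic.010G001700 (3.97-fold), Sobic.001G144700 (2.59-fold) and Sobic.006G129466 (2.34-fold) were inside. Outside were Sobic.001G491400, the ortholog of CYP704B2, a fatty acid hydroxylase of exine formation, with 257 FPKM (A1), 1498 (A2) and 0.609 (A3) (5.81-fold), Sobic.006G064400 (8.28-fold) and Sobic.004G001700 (9.15-fold). The 4 genes left out by name would otherwise have met the rule. They are the orthologs of the lipid carrier gene LTPL44 (Sobic.007G180700, 6025, 5380.3 and 0.543 FPKM), the exine hydroxylase gene CYP703A3 (Sobic.007G029900, 409, 942 and 0.921 FPKM), the cutin gene HTH1 (Sobic.006G185600, 52.8, 194 and 0.171 FPKM) and the mitotic cyclin gene OsCycB1 (Sobic.003G328500, 74.2, 131 and 0.611 FPKM).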

How the data were processed

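Whole anthers of 3 stages were sequenced in 9 libraries, 3 per stage. Per the paper's methods, the authors trimmed reads with AdapterRemoval, removed rRNA reads with Bowtie2 2.2.9, aligned with STAR to genome version v3.0.1, estimated levels with StringTie 1.3.3b and ran cuffdiff between stages. The authors deposited FPKM values, 1 per locus and stage, with the replicates combined. Reads per locus were not used here, so depth and precision are unknown, and limma could not be run as planned for values per replicate.

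From these values, log2 and folds were computed after adding 0.5 FPKM (python 3.11.15, numpy 2.4.6, pandas 2.3.3), and a fold of at least 2 was counted. The background was every locus that has a gene ID and was listed above 0 at any stage. The start of each deposited interval was raised by 1, after which 744 of them coincided with a gene start in the RefSeq table (assembly Sorghum_bicolor_NCBIv3), against 170 as deposited. That table matched 0 of the gene IDs, and descriptions came from the part of the study's gene table used here. The rule and the fold counts were tested on simulated data. Members and lists were chosen with earlier results of these data known. Named genes were those with the 10 highest mean early levels, the 5 highest and lowest A2 over A1, the 5 lowest A3 values, a description, a neighbouring member within 100 kb, or a value next to a limit, 3 on each side. Marker lists are given by sums and counts, with single genes named as examples, and tapetum, exine and meiotic genes of the study that the lists lack were added after their values were seen. The other members were added after their values were seen. Alternatives were other pseudocounts, scalings and limits of the rule.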

Additional observations from a re-analysis of the deposited data

How the results depend on the processing

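No paired analysis was possible because the replicates of each stage were combined before deposit, and leaving out replicates was not run for the same reason. Across 10 alternatives, 56 of 72 values stayed within 1.5-fold of the value reported (on the linear scale for medians) and 16 moved further. A change of direction could be counted only for the medians of A3 over A2 and of A3 over A1. The rule fixes the sign of both, so the 0 changes found carry no information. With A1 and A2 at 25 FPKM or more there were 104 members, of which 8 were at least 2-fold higher in A2, and the median log2 was -6.65 for A3 over A2 and -6.52 for A3 over A1. With 100 FPKM or more there were 32 members, with medians of -9.21 and -9.19. These shifts follow from the limits themselves. A pseudocount of 0.1 FPKM in place of 0.5 gave medians of -9.09 (A3 over A2) and -9.03 (A3 over A1), and over all loci 1419 higher and 548 lower in A2 than in A1, where 896 and 228 were counted. A pseudocount of 1 FPKM gave medians of -6.85 and -6.69, where -7.72 and -7.51 were reported. Scaling every stage to the same sum, which shifts A3 over A2 by -0.28 on the log2 scale at high levels, gave 69 members (54 of the 58 among them), 5 of them at least 2-fold higher in A2, and 349 of all loci lower in A2. Median-of-ratios scaling gave 54 members, all among the 58, with 1 at least 2-fold higher in A2. An alternative chosen after seeing the data, the same-sum scaling of flanking loci, gave 44.4% lower beside members and 28.8% beside other abundant loci.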

Other observations

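Without a gene ID, 4 further loci met the same limits of level and ratio. The locus MSTRG.23208 on chromosome 7 (8524194 to 8524500) was the strongest, with 139.7 FPKM (A1), 138 (A2) and 0.270 (A3). MSTRG.26513 on chromosome 8 (58366262 to 58369363) had 95.9, 71.5 and 0.0441 FPKM. MSTRG.17494 on chromosome 5 (453891 to 454721) had 70.4, 62.3 and 0.0699 FPKM, and MSTRG.14413 on chromosome 4 (5392285 to 5396591) had 62.5, 52.5 and 0.0218 FPKM. All 4 were within 1.5-fold between A1 and A2, and none shares its interval with another locus.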
